A study of Mus musculus with 10 samples.

Results

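Protocadherin regions were taken from 6 lists of chromatin regions bound by HEB or SMAD2/3 in mouse cells. Every region for which the authors listed a gene whose symbol begins with Pcdh was kept, and each region was counted once however many genes it was listed for. This gave 79 of 78263 regions. HEB is the basic helix-loop-helix E protein encoded by Tcf12, and SMAD2/3 stands for the pair of SMAD proteins through which activin and Nodal act on transcription. The study profiled both by chromatin immunoprecipitation and sequencing (ChIP-seq) in the CGR8 embryonic stem cell (ESC) line and in endoderm made from it, and HEB a second time in each after SB431542 (SB), an inhibitor of the activin and Nodal type I receptor kinases.

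The ESC groups were kept feeder-free in medium with serum and LIF, and the ESC+SB group received 10 µM SB for 24 hours. The Endoderm groups were moved to serum-free medium, received 100 ng/ml Activin A from day 2, and were taken for chromatin at day 4. The Endoderm+SB group received 10 µM SB at day 2 for 48 hours. The labels name Activin A and SB together for it, so whether both were present throughout is not certain from their wording. All groups come from 1 cell line, and the labels name no altered genotype. Each of the 6 groups held 1 ChIP library, and the 4 input libraries, 1 for each cell state and treatment, served as background, so the SMAD2/3 and HEB libraries of the same cells share an input. No expression was measured, and the labelled cell types were therefore not checked against markers. With 1 library a group no spread between cultures could be measured, no test was made, and every difference given here is between single libraries.

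Protocadherins are the largest family of cadherins, membrane proteins that bind to each other between cells. The clustered members lie in tandem in 3 adjoining groups, Pcdha, Pcdhb and Pcdhg. In Pcdha and Pcdhg each variable first exon has its own promoter and is spliced to constant exons shared by the cluster, whereas Pcdhb genes are single exons. Neurons choose variable exons at random and use the resulting surface code to tell their own branches from those of others. The C-type genes at the end of Pcdha and Pcdhg are less subject to that choice. The non-clustered members are single genes on several chromosomes, best known for cell sorting and axon growth in the developing embryo and brain.

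Promoter sequences are shown for the 3 non-clustered genes whose 5′ end, as listed by the authors, lay inside a bound region and whose upstream sequence was in the RefSeq promoter table (build GRCm38.p6) outside the annotated span of the gene. They are shown because a bound region covered the start site, and the peak of that region can lie outside the window. A bound region covered the start of Pcdh7 too, but its window lies inside the gene's annotated span. E-boxes, the CANNTG sites read by E proteins on either strand, are in capitals. Each sequence runs 5′ to 3′ on the gene's strand and ends at the last base before the gene's annotated span. The first is Pcdh10 (chr3:45378148-45378397, plus strand). The second is Pcdh18 (chr3:49757384-49757566, minus strand), shown with 183 bases because the table's start lies inside the span. The last is Pcdh21, whose current symbol in the table is Cdhr1 (chr14:37098348-37098597, minus strand).
Pcdh10: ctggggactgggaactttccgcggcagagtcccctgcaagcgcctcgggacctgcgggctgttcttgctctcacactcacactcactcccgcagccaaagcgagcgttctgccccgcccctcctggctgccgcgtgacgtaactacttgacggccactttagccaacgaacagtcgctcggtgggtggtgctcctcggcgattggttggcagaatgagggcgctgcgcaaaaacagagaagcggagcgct
Pcdh18: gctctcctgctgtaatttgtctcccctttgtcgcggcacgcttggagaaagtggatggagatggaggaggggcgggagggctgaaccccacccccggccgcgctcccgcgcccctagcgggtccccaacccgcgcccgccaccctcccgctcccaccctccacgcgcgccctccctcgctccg
Pcdh21: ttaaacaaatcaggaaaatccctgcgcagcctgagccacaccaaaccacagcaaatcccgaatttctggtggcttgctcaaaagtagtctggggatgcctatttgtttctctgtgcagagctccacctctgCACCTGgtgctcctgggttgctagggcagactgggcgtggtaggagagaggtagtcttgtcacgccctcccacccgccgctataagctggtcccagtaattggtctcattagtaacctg

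The Pcdh21 window held 1 E-box, CACCTG, 119 bases before the start, and 2 copies of CAGAC, the short SMAD box. The Pcdh10 and Pcdh18 windows held neither CANNTG nor CAGAC. Both strands were searched. Among all 32851 promoters of the table, 66.2% had an E-box in the same 250 bases, and 42.2% had the SMAD box. The E-box form seen at Pcdh21, on either strand, was in 17.2% and is counted within the 66.2%. Over 183 bases these shares were 56.0%, 33.6% and 13.2%. The GC content was 63.2% for Pcdh10, 72.1% for Pcdh18 and 53.2% for Pcdh21, against a median of 52.4% over all promoters. The windows are of another build than the regions, and the authors' 5′ ends were not matched to the table's starts base by base.

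Of 71 protocadherin genes in the family, 45 were listed for at least 1 region in at least 1 list. All 14 Pcdha and all 22 Pcdhg genes were among them, and none of the 22 Pcdhb genes was. Of the 13 non-clustered genes, Pcdh1, Pcdh7, Pcdh8, Pcdh9, Pcdh10, Pcdh17, Pcdh18, Pcdh19 and Pcdh21 were listed, and Pcdh11x, Pcdh12, Pcdh15 and Pcdh20 were not. The family was taken from RefSeq symbols that begin with Pcdh, and Pcdh21, now Cdhr1, was added because the lists use its old name. Other renamed genes were not sought, so Pcdh21 entered the 13 through being listed. The share of all protein-coding genes listed in at least 1 list was not computed, so these counts describe the family only. The clustered counts stand for few regions, since 1 Pcdhg region can be listed for all 22 genes of the cluster. The 2 Pcdha regions covered 13 genes (Pcdha1 to Pcdha12 and Pcdhac1) and 14 genes (the same with Pcdhac2). Pcdhg regions were listed for Pcdhga1 to Pcdhga12, for Pcdhgb1, Pcdhgb2 and Pcdhgb4 to Pcdhgb8, and for Pcdhgc3 to Pcdhgc5, in each of the 6 lists.

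The non-clustered genes can be counted as genes, with Pcdh21 among those listed in every list but ESC SMAD2/3. In ESCs, 1 of 13 had a SMAD2/3 region (7.32% of 21896 protein-coding genes), 5 had a HEB region (24.1%) and 6 had a HEB region with SB (29.9%). In endoderm, 4 of 13 had a SMAD2/3 region (23.1%), 6 had a HEB region (24.8%) and 5 had a HEB region with SB (23.0%). A region that is missing from a list fell below the authors' threshold in that library. The smallest ChIP height listed was 28 in ESC+SB HEB and 25 in the other lists.

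By region, ESC SMAD2/3 held 3 protocadherin regions, ESC HEB 15, ESC+SB HEB 13, Endoderm SMAD2/3 14, Endoderm HEB 22 and Endoderm+SB HEB 12. As shares of lists of 4111 to 18981 regions these were 0.0730% (exact Clopper-Pearson 95% interval 0.0151 to 0.213), 0.0871% (0.0488 to 0.144), 0.0775% (0.0413 to 0.133), 0.127% (0.0694 to 0.213), 0.116% (0.0727 to 0.175) and 0.118% (0.0611 to 0.206). The 3 lists of differentiating cells had the higher shares, and all 6 intervals, which cover counting error only, overlapped. Over the lists, 31 regions were at Pcdhg, 2 at Pcdha and 46 at non-clustered genes. Without SB, non-clustered genes had 15 regions in Endoderm HEB against 7 in ESC HEB, while Pcdhg had 7 in each. Pcdh7 alone had 9 of those 15 and 2 of those 7 non-clustered regions. With SB, non-clustered genes had 7 in Endoderm+SB HEB against 8 in ESC+SB HEB, and Pcdhg 4 against 5.

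**Figure D1:**
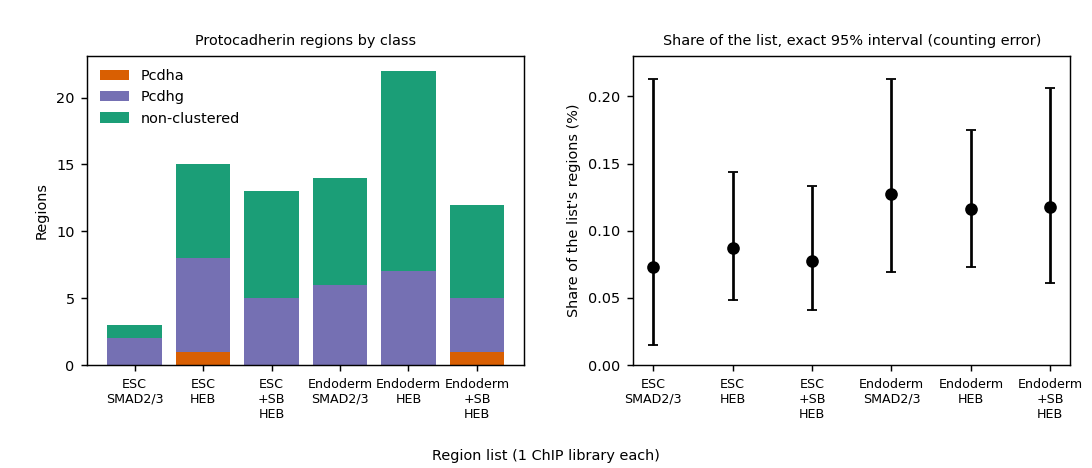
Left, number of protocadherin regions in each of the 6 lists, stacked by class; right, their share of all regions of the list in percent, with exact 95% intervals for counting error. The Endoderm HEB bar reaches 22, with 15 non-clustered regions, 9 of them at Pcdh7, and the intervals on the right all overlap.

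Tag enrichment, the authors' ratio of ChIP tags to background tags in a region, lay close to the median of the list in 4 lists and above it in ESC SMAD2/3, with 3 regions, and ESC+SB HEB. Its median over protocadherin regions and over all regions was 11.9 against 7.03 for ESC SMAD2/3, 7.25 against 8.44 for ESC HEB and 9.63 against 6.36 for ESC+SB HEB. It was 9.07 against 9.47 for Endoderm SMAD2/3, 12.3 against 12.7 for Endoderm HEB and 8.89 against 9.33 for Endoderm+SB HEB. Regions within 1 kb of a listed 5′ end, called promoter-proximal here, made up 24 of the 79. By list they were 0 of 3, 6 of 15, 7 of 13, 3 of 14, 3 of 22 and 5 of 12 in the order above, where all regions had 15.2%, 17.7%, 28.4%, 30.3%, 15.1% and 34.5%. For protocadherin regions the distance was to a protocadherin 5′ end, and for all regions to that of any listed gene. A Pcdhg region has many such ends, so the shares are not fully alike. The promoter-proximal part was highest in ESC+SB HEB (53.8%) and, apart from the 3 ESC SMAD2/3 regions, lowest in Endoderm HEB (13.6%).

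Regions of the 6 lists that overlapped by 1 bp or more were merged, which gave 37 protocadherin sites, 11 at Pcdhg, 2 at Pcdha and 24 at non-clustered genes. A site was listed in 1 list in 20 cases, in 2 in 7 cases, in 3 in 4 cases and in 5 in 6 cases. No site was in 4 lists or in all 6. HEB was listed at 34 sites and SMAD2/3 at 14, of which 3 had no HEB region in any list (near Pcdhgc4, Pcdh7 and Pcdh19). The counts by number of lists and by factor were not made over all merged sites, so they describe the protocadherin sites only. Of the 37 sites, 9 were listed only in ESC lists and 18 only in lists of differentiating cells, where 32.0% and 47.3% of all 40263 sites merged in the same way were. At non-clustered genes these numbers were 4 and 15 of 24, and at Pcdhg 4 and 2 of 11. Pcdh7 had more of those 15 sites than any other gene.

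**Figure D2:**
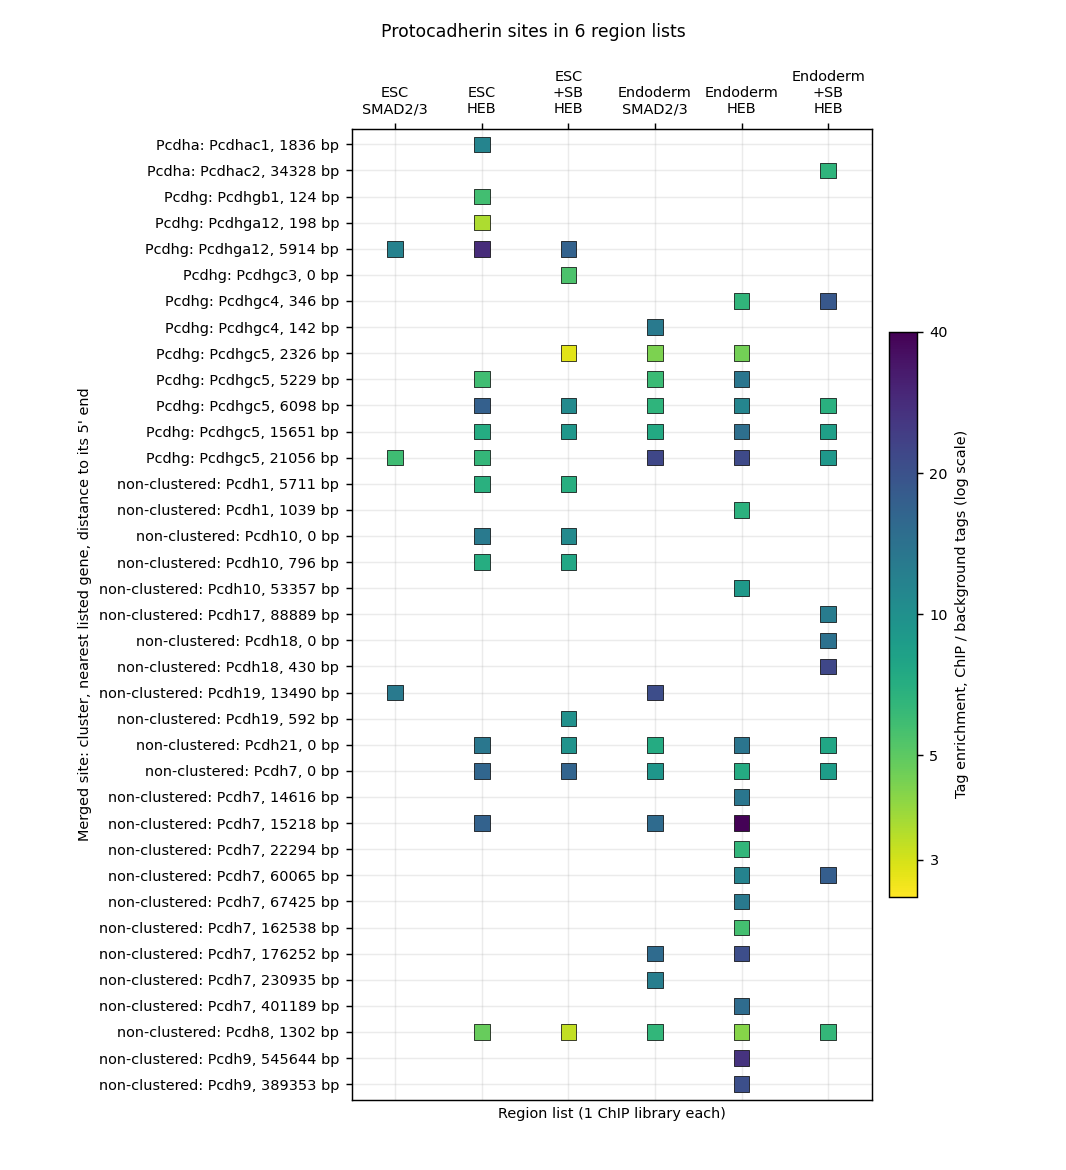
Each row is 1 of the 37 merged sites, with its class, the nearest listed gene and the distance in bp from that gene's 5′ end, and each column is 1 region list. A filled square marks a listed region, and its colour gives tag enrichment on a log scale, the highest where a list has several protocadherin regions in the site. The rows for Pcdhgc5 at 6098 and 15651 bp, Pcdh7 at its 5′ end, Pcdh8 and Pcdh21 are filled in all columns but ESC SMAD2/3, and the rows of Pcdh7 beyond its 5′ end are filled mainly under Endoderm HEB.

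Pcdha and Pcdhb, which with Pcdhg lie on chromosome 18, had few listed regions. In ESC HEB a region at chr18:37251626-37251802 (mm9), 1836 bp after the listed 5′ end of Pcdhac1, held 57 ChIP and 5 background tags, an enrichment of 11.4 (4.61 to 36.4, the exact 95% interval of this ratio of counts). In Endoderm+SB HEB a region at chr18:37337951-37338512, 34328 bp after the 5′ end of Pcdhac2, held 171 and 26 tags (6.58, 4.34 to 10.4). Both lay at the C-type end of the cluster, neither was in any other list, and no Pcdha 5′ end had a region within 1 kb. From the 5′ end of Pcdha1 to the end of the second region, 1 region in a list is 0.402 per 100 kb, where chromosome 18 had 0.566 in ESC HEB and 0.353 in Endoderm+SB HEB, and the other 4 lists had none.

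The 483.1 kb between the last Pcdha region and the 5′ end of Pcdhga1, where the Pcdhb genes lie, held no region listed for a protocadherin. A single site in it carried no protocadherin name. It was at chr18:37377897-37378137 in ESC HEB (64 ChIP and 10 background tags, enrichment 6.4), at chr18:37377838-37378134 in ESC+SB HEB (97 and 11 tags, 8.82) and at chr18:37377848-37378132 in Endoderm+SB HEB (89 and 14 tags, 6.36). Both SMAD2/3 lists and Endoderm HEB had no region in these 483.1 kb. For scale, chromosome 18 as a whole had 0.145 regions per 100 kb in ESC SMAD2/3 and 0.688 in Endoderm HEB, the lowest and highest of the lists.

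At Pcdhg the listed regions gathered at the C-type end. Of 22 variable 5′ ends, 4 had a region within 1 kb in any list. In ESC HEB these were Pcdhgb1, 124 bp from a region with 58 ChIP and 10 background tags (5.80, 2.94 to 12.7), and Pcdhga12, 198 bp from a region with 95 and 27 tags (3.52, 2.27 to 5.61). In ESC+SB HEB a region with 159 and 29 tags spanned the 5′ end of Pcdhgc3 (5.48, 3.67 to 8.45). Each of these 3 was in 1 list alone and had an enrichment under the median of its list.

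The fourth was Pcdhgc4, a C-type gene, which was bound in all 3 lists of differentiating cells and in none of ESCs. The SMAD2/3 region of endoderm began 142 bp after the 5′ end (chr18:37974875-37975277) and held 142 ChIP and 11 background tags (12.9, 7.0 to 26.4). The HEB region of endoderm ended 383 bp before the 5′ end (chr18:37973872-37974350) and held 170 and 26 tags (6.54, 4.31 to 10.3). SMAD2/3 and HEB thus lay on opposite sides of the start and did not overlap. With SB the HEB region held 264 and 14 tags (18.9, 11.0 to 35.0), 2.88 times the enrichment without SB, and the counting intervals of the pair did not overlap.

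From the 5′ end of Pcdhgc3 to the last Pcdhg region, a stretch of 34.79 kb, the lists had 1 region (ESC SMAD2/3), 4 (ESC HEB), 3 (ESC+SB HEB), 6 (Endoderm SMAD2/3), 7 (Endoderm HEB) and 4 (Endoderm+SB HEB). This is 2.87, 11.5, 8.62, 17.2, 20.1 and 11.5 regions per 100 kb, where chromosome 18 had 0.145, 0.566, 0.526, 0.4, 0.688 and 0.353. The stretch was chosen after the regions were seen, and its far end is the edge of a region, so the density is a description only. The 144.5 kb from Pcdhga1 to Pcdhgc3, with most of the variable exons, held 1, 3 and 2 regions in the ESC lists and none in the lists of differentiating cells. The ESC counts are 0.692, 2.08 and 1.38 regions per 100 kb. At the chromosome 18 densities above, a stretch of this length would hold few regions in any list, and the contrast between states was not tested.

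The Pcdhg site with the highest enrichment lay 5914 bp after the 5′ end of Pcdhga12, between the last A-type and the first C-type gene, and was listed in the 3 ESC lists only. In ESC SMAD2/3 it held 95 ChIP and 8 background tags (chr18:37931175-37931470, 11.9, 5.79 to 28.3). In ESC HEB it held 227 and 8 tags (chr18:37931148-37931506, 28.4, 14.2 to 66.5), and in ESC+SB HEB 220 and 13 tags (chr18:37931154-37931503, 16.9, 9.69 to 32.3). The 3 intervals overlapped one another. The peaks of SMAD2/3 and HEB without SB stood at the same base, 37931280.

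The site farthest past Pcdhgc5, 21056 bp after its 5′ end, was higher in endoderm. In ESC SMAD2/3 it held 112 ChIP and 19 background tags (5.89, 3.6 to 10.2) and in ESC HEB 127 and 20 tags (6.35, 3.94 to 10.7). In Endoderm SMAD2/3 it held 310 and 14 tags (22.1, 13.0 to 41.0) and in Endoderm HEB 258 and 12 tags (21.5, 12.1 to 42.2). Enrichment was therefore 3.76 times higher in endoderm for SMAD2/3 and 3.39 times higher for HEB, and for each factor the counting intervals of the ESC and endoderm values did not overlap. The median ratios over all pairs of the lists were 1.62 and 1.21, and divided by them the site had 2.31 and 2.79. The counting intervals take no account of that general shift between libraries. In Endoderm+SB HEB it held 174 and 19 tags (9.16, 5.69 to 15.6), 0.426 times the value without SB, with overlapping intervals. ESC+SB HEB did not list it, but its ESC HEB height of 27.2 lay under the smallest height of the ESC+SB HEB list.

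Between these lay 4 further sites past the 5′ end of Pcdhgc5. The one at 6098 bp (chr18:37985298-37986617 in Endoderm HEB) had enrichments of 17.3 in ESC HEB, 10.7 in ESC+SB HEB, 6.62 in Endoderm SMAD2/3, 11.4 in Endoderm HEB and 6.90 in Endoderm+SB HEB. The one at 15651 bp (chr18:37994851-37996331 in Endoderm HEB) had 7.25, 9.27, 7.52, 14.7 and 8.41 in the same order. In both, HEB was listed in all 4 HEB libraries, and SMAD2/3 was listed in endoderm and not in ESCs. The weaker site at 2326 bp had 2.83 in ESC+SB HEB, 4.30 in Endoderm SMAD2/3 and 4.50 in Endoderm HEB. The site at 5229 bp had 5.83 in ESC HEB, 6.07 in Endoderm SMAD2/3, and 13.5 and 7.29 for a pair of regions in Endoderm HEB.

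**Figure D3:**
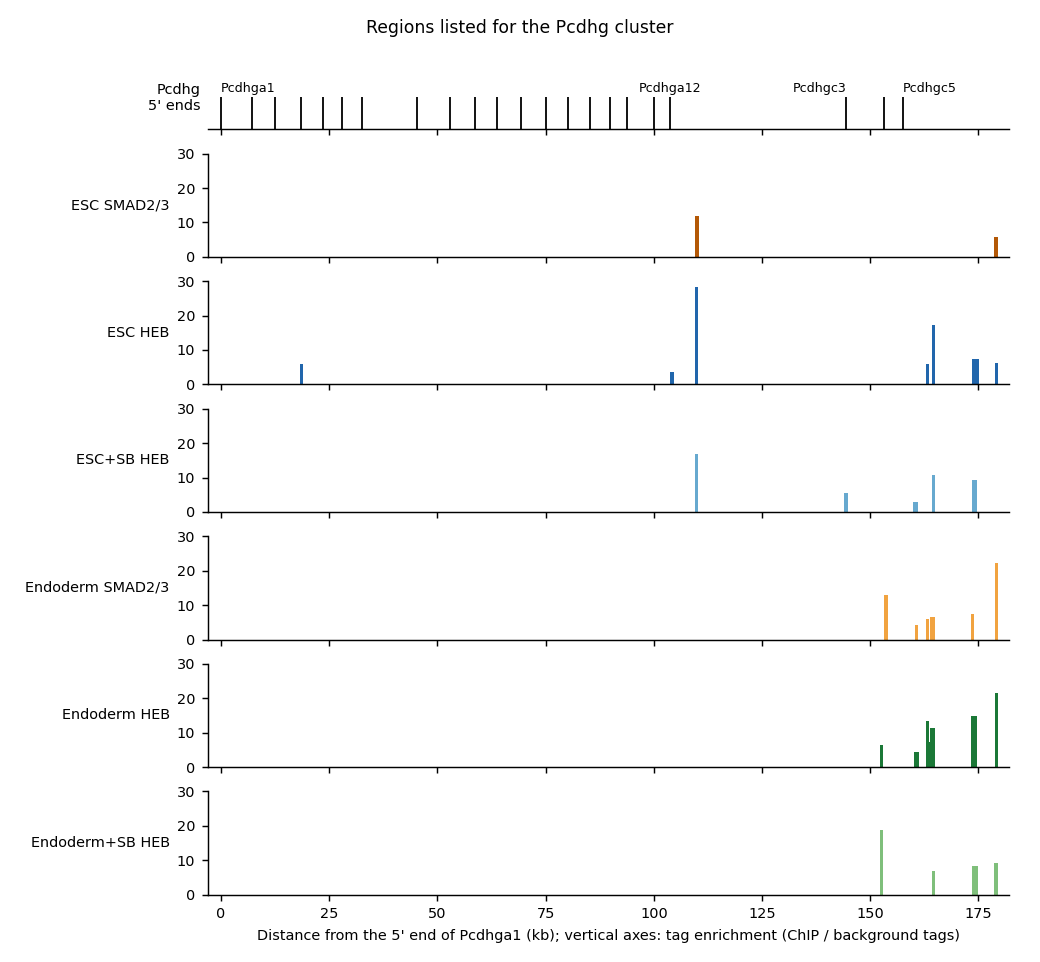
Top, the 22 listed Pcdhg 5′ ends along the cluster; below, 1 row a list, with each region as a bar at its distance in kb from the 5′ end of Pcdhga1 and its tag enrichment as height (narrow regions are widened to stay visible). The ESC rows have bars at about 110 kb, up to 28.4, that the 3 lower rows lack, and the endoderm rows reach about 22 at the last site.

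Among non-clustered genes Pcdh7, which encodes a delta-type protocadherin known from cell adhesion in the early ectoderm and from axon guidance, had the most regions, 19 over 5 lists. Its 5′ end (chr5:58109260, mm9) lay in a broad HEB region in ESCs, chr5:58105857-58110085, with 1697 ChIP and 105 background tags (16.2, 13.3 to 19.9). With SB this region was chr5:58105818-58111510, with 2094 and 126 tags (16.6, 13.9 to 20.1). The same span was broken into shorter regions in differentiating cells. The part over the 5′ end had 548 and 62 tags in Endoderm SMAD2/3 (8.84, 6.79 to 11.7), 462 and 63 tags in Endoderm HEB (7.33, 5.63 to 9.70) and 138 and 16 tags in Endoderm+SB HEB (8.62, 5.13 to 15.5). Upstream pieces within the span were not listed for Pcdh7 and had 12.6 and 4.82 in Endoderm SMAD2/3, 12.2 in Endoderm HEB and 12.0 in Endoderm+SB HEB. A further piece 1016 bp after the 5′ end had 9.30 in Endoderm SMAD2/3.

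A site 15.2 kb after the Pcdh7 5′ end had the highest enrichment of any protocadherin region. In ESC HEB it held 125 ChIP and 4 background tags (17.0, with the background raised to the authors' floor), and its ChIP height was 25.1, at the edge of the list. In Endoderm SMAD2/3 it held 307 and 20 tags (15.4, 9.77 to 25.5). In Endoderm HEB it held 905 and 23 tags (39.4, 26.1 to 62.4) with a height of 224.4 (chr5:58124478-58125190). It was in neither list with SB, but a height of 25.1 could not have entered the ESC+SB HEB list, so only the endoderm libraries bear on SB here.

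Endoderm HEB listed 9 regions for Pcdh7, and 77 of the 5682 genes in that list (1.36%) had 9 or more. Endoderm SMAD2/3 listed 5, and 125 of its 5246 genes (2.38%) had 5 or more. ESC HEB, ESC+SB HEB and Endoderm+SB HEB listed 2, 1 and 2. These shares take no account of gene length. Among the remaining Endoderm HEB regions, that at 176252 bp had 20.7 and overlapped a SMAD2/3 region of 15.3, and that at 401189 bp had 15.2. The regions at 14616, 22294, 67425 and 162538 bp had between 5.71 and 13.5 and were in no other list. The region at 60065 bp had 11.6 in Endoderm HEB and 17.7 with SB, and a SMAD2/3 region without HEB lay at 230935 bp (12.4).

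**Figure D4:**
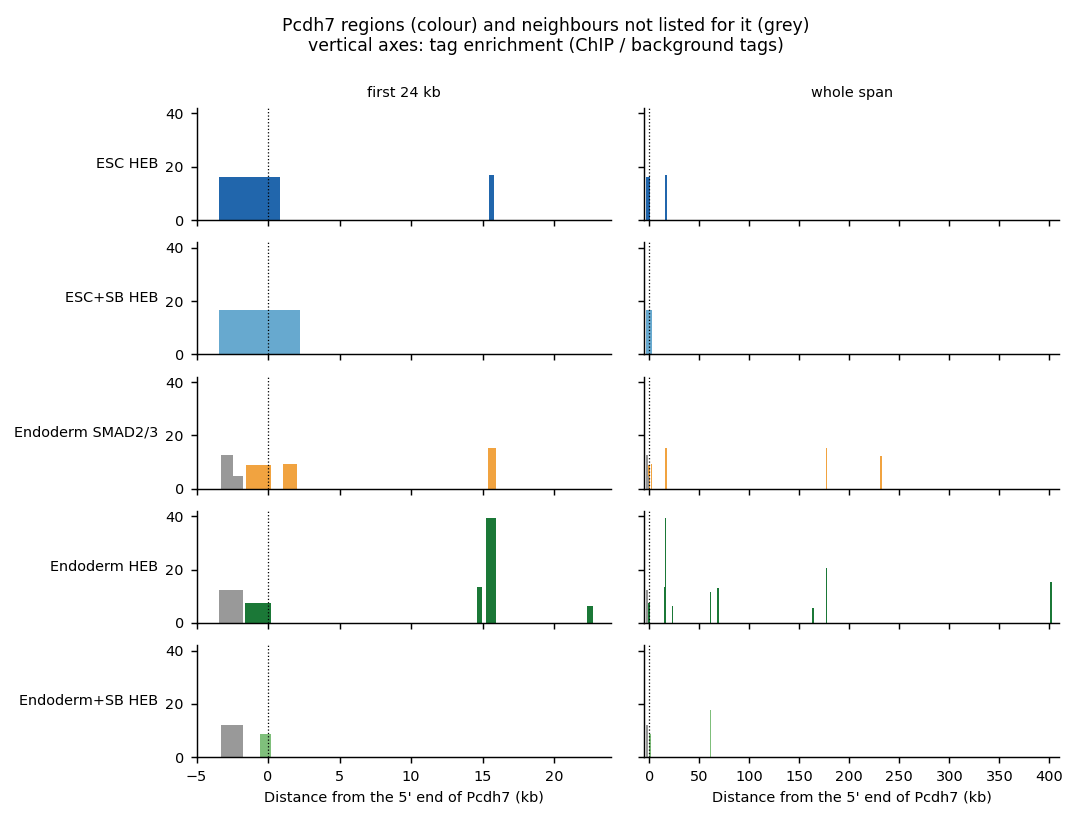
Regions at Pcdh7 in 5 lists, plotted by distance from its 5′ end in kb with tag enrichment as height; left, the first 24 kb, right, the whole span (narrow regions are widened to stay visible). Coloured bars are listed for Pcdh7 and grey bars are not; the site near 15 kb rises to 39.4 in the Endoderm HEB row and has no bar in the SB rows, where the smallest ChIP height listed in ESC+SB HEB was 28.

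Pcdh10, a delta-type member whose cytoplasmic tail recruits the WAVE actin regulators, had a HEB region over its start in ESCs only. In ESC HEB the region over the 5′ end held 451 ChIP and 35 background tags (chr3:45181365-45182472, 12.9, 9.13 to 18.7), and a second, 884 bp after it, held 730 and 102 tags (7.16, 5.81 to 8.89). In ESC+SB HEB the corresponding regions had 10.5 and 10.7, where the first was split, and 7.64. In Endoderm HEB the only Pcdh10 region lay 53357 bp after the 5′ end, with 81 and 9 tags (9.0, 4.51 to 20.4), and SMAD2/3 and Endoderm+SB HEB had none. The promoter printed for this gene, with no E-box, is thus that of a start covered by a HEB region in both ESC libraries. The listed 5′ end was at 45182320. In ESC HEB the region over the 5′ end peaked at 45181720, farther upstream than the printed window is long. In ESC+SB HEB the piece over the 5′ end peaked at 45182143, nearer than that length, and the other piece at 45181715. The missing E-box therefore does not describe the sequence under the ESC HEB peak.

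Pcdh21 and Pcdh8 had the same site in 5 of the 6 lists, all but ESC SMAD2/3. At the 5′ end of Pcdh21, the photoreceptor cadherin, enrichment was 13.3 in ESC HEB (8.47 to 22.2), 9.63 in ESC+SB HEB (6.60 to 14.5) and 7.37 in Endoderm SMAD2/3 (4.55 to 12.6). It was 13.6 in Endoderm HEB (8.81 to 22.0) and 7.75 in Endoderm+SB HEB (5.05 to 12.4), so that all 5 intervals overlapped. Its printed promoter is the one with the E-box. At Pcdh8, the mouse relative of the paraxial protocadherin of the gastrula, a site 1302 to 1345 bp after the 5′ end had 4.78 in ESC HEB, 3.23 in ESC+SB HEB, 6.45 in Endoderm SMAD2/3, 4.14 in Endoderm HEB and 6.41 in Endoderm+SB HEB. Each of these lay under the median of its list.

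Pcdh18, a delta-type member, was listed only in Endoderm+SB HEB. A region over its 5′ end held 157 ChIP and 11 background tags (chr3:49561128-49561611, 14.3, 7.76 to 29.2), and another 430 bp before it held 126 and 3 tags (22.1 with the floored background). Pcdh17, a relative, was also in that list alone, at 88889 bp (12.6, 7.68 to 22.0). Pcdh9 was in Endoderm HEB alone, with regions 389353 and 545644 bp after the 5′ end (20.6 and 26.7, both floored).

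Pcdh19, an X-linked gene known from an epilepsy of girls, was the one gene with SMAD2/3 in both states and no HEB there. The site, 13490 bp after the 5′ end (chrX:130209647-130210042 in endoderm), held 79 ChIP and 4 background tags in ESC SMAD2/3 (12.8) and 162 and 6 tags in Endoderm SMAD2/3 (21.0), both with floored backgrounds. ESC+SB HEB listed another region 592 bp after the 5′ end (9.92, floored). Pcdh1, known from airway epithelium, had a HEB site 5711 bp after the 5′ end in ESCs with and without SB (7.07 and 6.88) and another at 1039 bp in Endoderm HEB (6.80).

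SMAD2/3 and HEB regions of the same cells shared most of the sites at which SMAD2/3 was listed. In ESCs 2 of 3 SMAD2/3 regions overlapped a HEB region (66.7%, 9.43 to 99.2, against 83.9% of all SMAD2/3 regions), and 2 of 15 HEB regions overlapped SMAD2/3 (13.3%, 1.66 to 40.5, against 19.8%). In endoderm 10 of 14 SMAD2/3 regions overlapped HEB (71.4%, 41.9 to 91.6, against 60.5%), and 11 of 22 HEB regions overlapped SMAD2/3 (50.0%, 28.2 to 71.8, against 35.3%). Each of these intervals holds the share over all regions of the list. At Pcdhg 5 of 6 endoderm SMAD2/3 regions had HEB, all but that of Pcdhgc4, and at non-clustered genes 5 of 8. Over the 10 endoderm pairs the SMAD2/3 and HEB peaks were a median of 14 bp apart and 9 pairs were within 100 bp, against a median of 17 bp and 87.2% for all pairs.

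Between states, 8 of 15 ESC HEB regions overlapped an Endoderm HEB region (53.3%, 26.6 to 78.7, against 32.1% of all), which is 8 of 22 Endoderm HEB regions (36.4%, 17.2 to 59.3, against 29.1%). For SMAD2/3, 2 of 3 ESC regions (66.7%, 9.43 to 99.2, against 38.7%) overlapped 2 of 14 of endoderm (14.3%, 1.78 to 42.8, against 14.2%). Of the 14 endoderm SMAD2/3 regions, 8 overlapped HEB of ESCs (57.1%, 28.9 to 82.3, against 29.3%), at Pcdhgc5, Pcdh7, Pcdh8 and Pcdh21. Each of these intervals also holds the share over all regions.

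Of the 8 HEB pairs shared between states, 4 were 2-fold or more higher in endoderm and 1 was 2-fold or more lower. All pairs of the lists gave 17.7% higher and 4.92% lower, with a median ratio of 1.21, so that endoderm values ran higher in general. The 4 were the Pcdhgc5 sites at 5229 bp (5.83 and 13.5), 15651 bp (7.25 and 14.7) and 21056 bp (6.35 and 21.5), and the Pcdh7 site at 15.2 kb (17.0 and 39.4). At that Pcdh7 site only the ESC HEB value has a floored background, with 125 ChIP and 4 background tags. The floor lowers that value and so raises the ratio, and the 2-fold call there depends on it. The 1 that was lower was the Pcdh7 5′ end (16.2 and 7.33), where the regions compared differ in width. The broad ESC region there also overlapped another Endoderm HEB piece, with 723 and 59 tags (12.2). Pairing by longest overlap left that piece out, so the ratio sets the ESC region against only a part of the endoderm signal. After division by the median ratio, which was added after seeing the data, 1 pair remained 2-fold higher, the Pcdhgc5 site at 21056 bp (2.79), and 1 lower, the Pcdh7 5′ end (0.374), where all pairs gave 10.5% and 9.74%. For SMAD2/3, 1 of the 2 shared pairs was 2-fold or more higher in endoderm, at Pcdhgc5 (31.9% of all pairs higher, 1.57% lower), and Pcdh19 had a ratio of 1.64. The median ratio over all SMAD2/3 pairs was 1.62, and divided by it these were 2.31 at Pcdhgc5 and 1.01 at Pcdh19.

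With SB in ESCs, 9 of 15 HEB regions overlapped a region of the ESC+SB list (60.0%, 32.3 to 83.7, against 74.8% of all), and 10 of 13 in the other direction (76.9%, 46.2 to 95, against 76.2%). Of the 6 without, 5 were clustered: Pcdhac1, Pcdhgb1, Pcdhga12 at 198 bp, and the Pcdhgc5 sites at 5229 and 21056 bp, and the other was the Pcdh7 site at 15.2 kb. In ESC HEB, 5 of these 6, all but Pcdhga12 at 198 bp, had heights under 28, the smallest height of the ESC+SB HEB list. Among regions with a height of 28 or more in both lists, 9 of 10 overlapped (90.0%, against 81.0% of all). No pair was 2-fold higher or lower with SB (1.09% and 8.55% of all pairs), and ratios ran from 0.596 at the Pcdhga12 site to 1.28 at the Pcdhgc5 site at 15651 bp. The median ratio was 0.832 over the 9 pairs and 0.848 over all.

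With SB in differentiating cells, 8 of 22 HEB regions overlapped a region of Endoderm+SB HEB (36.4%, 17.2 to 59.3, against 25.3%), and 8 of 12 in the other direction (66.7%, 34.9 to 90.1, against 47.5%). Within the upper 50% of each list by enrichment, 0 of 11 Endoderm HEB regions overlapped, against 16.0% of all. No interval was computed for this share, which rests on few regions. The Endoderm+SB list was the shorter, at 10147 against 18981 regions. The 4 regions found only with SB were at Pcdhac2, Pcdh17 and, for a pair, Pcdh18. Of the 8 pairs 1 was 2-fold higher with SB, at the Pcdhgc4 5′ end (6.54 and 18.9), and 1 lower, at the Pcdhgc5 site at 21056 bp (21.5 and 9.16), where all pairs gave 5.55% higher and 14.8% lower. The other 3 Pcdhgc5 and Pcdh21 pairs had ratios of 0.570 to 0.608, and the 3 Pcdh7 and Pcdh8 pairs 1.18 to 1.55. At the Pcdhgc5 sites at 6098 and 15651 bp the peaks with and without SB stood 344 and 668 bp apart.

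**Figure D5:**
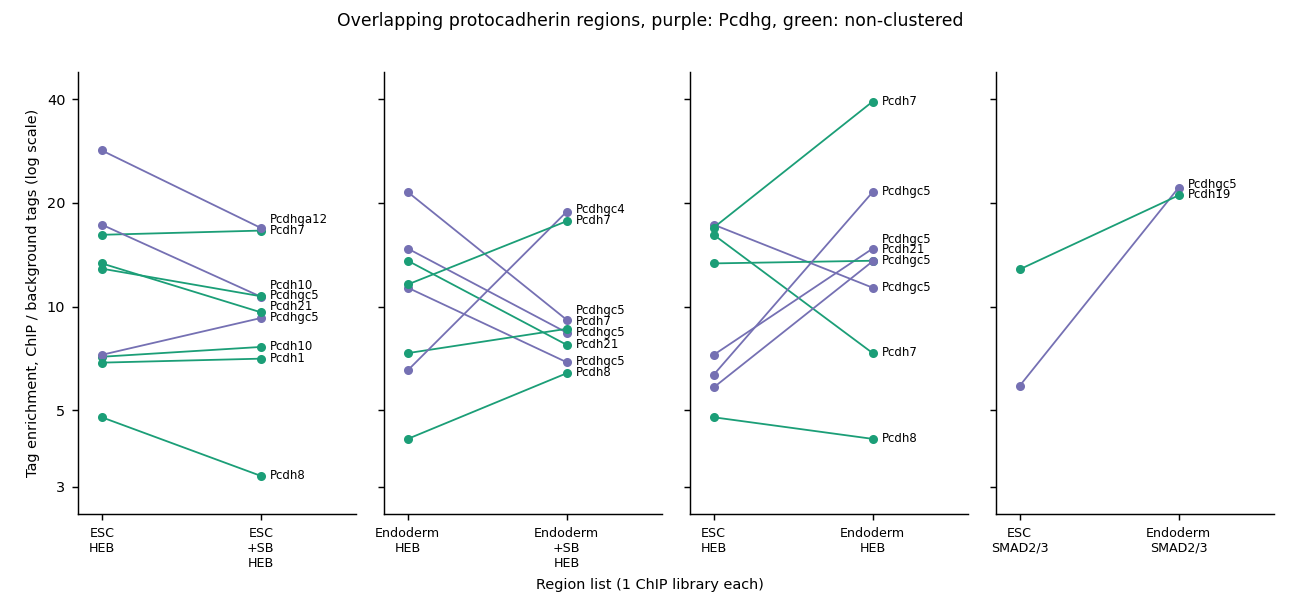
Tag enrichment (log axis) of overlapping protocadherin regions in 4 pairs of lists, from left to right ESC HEB without and with SB, Endoderm HEB without and with SB, HEB in ESCs and endoderm, and SMAD2/3 in ESCs and endoderm; each line joins a region to its longest overlap in the other list. Pcdhgc4 rises from 6.54 to 18.9 with SB in differentiating cells, and the Pcdhgc5 site at 21056 bp rises from 6.35 to 21.5 for HEB and from 5.89 to 22.1 for SMAD2/3 between states.

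Genes for known partners of the family were also counted. Of 13 regulators of chromatin known for the clustered genes, such as the boundary factor CTCF, the cohesin subunits and the silencer SMCHD1, 3 were listed in ESC SMAD2/3, 7 in ESC HEB, 7 in ESC+SB HEB, 6 in Endoderm SMAD2/3, 4 in Endoderm HEB and 6 in Endoderm+SB HEB. Of 11 cytoplasmic partners, such as WAVE complex members and focal adhesion kinases, 1, 7, 9, 4, 7 and 4 were listed in that order. In the same order, 7.32%, 24.1%, 29.9%, 23.1%, 24.8% and 23.0% of protein-coding genes were listed. Both sets stood above those shares in every list. The other cadherins counted at the end did so too, apart from the large members in ESC SMAD2/3. Some of these differences rest on 1 gene, such as 1 of 11 cytoplasmic partners in ESC SMAD2/3 and 4 of 13 chromatin regulators in Endoderm HEB. Gene length was not taken into account, and no test was made.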

How the data were processed

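ChIP-seq of HEB and SMAD2/3 gave 6 region lists, 1 for each ChIP library. Build mm9 and CASAVA 1.8.2 come from the submitters' processing notes. Aligner, peak caller and annotation are unnamed (not given in the sources used here). Coordinates may count from 0 or 1, and positions are printed as deposited. Per the file headers, each region has its ChIP tag count, its background tag count, the ratio of these (tag enrichment, with low backgrounds raised to a floor), and the signal, as the height of the ChIP and background peaks. The deposited score headed as a q-value was too large for that scale and was not used. The authors also listed genes and distances to their 5′ ends, and a 5′ end was taken from the region edge and this distance. The ratio was not scaled for depth between libraries.

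The members and lists were chosen with earlier results of these data known. Every listed protocadherin was named once. Values in every list were given for sites that were highest in their class, were in 3 or more lists, or were among the highest non-clustered genes of a list, and other sites were described after their values were seen. Regions were matched by an overlap of 1 bp or more, and enrichments were paired with the longest overlap. Intervals are exact 95% intervals for counting error only. Of 5 genes wanted for promoters, 5 matched the RefSeq table. Sequences on chromosome 18 are not shown. Overlap counting was tested on simulated lists and against bedtools 2.31.1, and scripts used Python 3.11.15, pandas 2.3.3, numpy 2.4.6, scipy 1.17.1 and matplotlib 3.10.9. Alternatives were a ChIP height of 28 or more, the upper 50% of each list by enrichment, an overlap of 50% of the shorter region, unnamed regions within the Pcdha and Pcdhg spans, and, added later, enrichment ratios divided by the median ratio.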

Additional observations from a re-analysis of the deposited data

Results flagged for a closer look

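At the Pcdh8 site, HEB enrichment with SB was 0.676 times that without SB in ESCs (3.23 against 4.78) and 1.55 times in differentiating cells (6.41 against 4.14). At the Pcdhgc5 site 15651 bp after the 5′ end the directions were opposite to these, at 1.28 times in ESCs (9.27 against 7.25) and 0.571 times in differentiating cells (8.41 against 14.7). Both were singled out because the single library of each state moved the other way, and the difference between states was not tested. At both sites the counting intervals with and without SB overlapped in both states. At the Pcdhgc5 site the peaks with and without SB stood 668 bp apart in differentiating cells and 7 bp apart in ESCs. The median over all pairs in differentiating cells was 15 bp, so the ratio of 0.571 compares regions with different peaks.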

How the results depend on the processing

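No paired analysis was possible because each group held 1 library. With a ChIP height of 28 or more, ESC SMAD2/3 kept 1 of 3 protocadherin regions, the share of them overlapping ESC HEB became 100.0% (1 of 1), and the share of ESC HEB regions overlapping ESC+SB HEB rose from 60.0% to 90.0% (9 of 10). ESC HEB went from 15 to 10 regions, exactly 1.5 times, and the other 8 results computed with this height moved by less than 1.5 times for counts and within the counting interval for shares. With the upper 50% of each list by enrichment, regions numbered 7 in ESC HEB, 6 in Endoderm SMAD2/3, 11 in Endoderm HEB and 5 in Endoderm+SB HEB, and the share of Endoderm HEB regions overlapping Endoderm+SB HEB became 0.0% (0 of 11). The construction of this alternative removes regions. Dividing enrichment ratios by the median ratio of all pairs reduced the HEB pairs that were 2-fold apart between ESCs and endoderm from 5 to 2 of 8. Requiring an overlap of 50% of the shorter region, or adding unnamed regions between the first and last listed regions of Pcdha and of Pcdhg, gave the same values for the 6 results each was run on. Pcdhb had no listed region and so no such span, and the unnamed site near it was not added. Enrichments of regions with few background tags are the least precise, as their intervals show.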

Other observations

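Other cadherins were listed alongside. Of 10 large members (the FAT, Dachsous and flamingo families and Cdh23), 0 were listed in ESC SMAD2/3, 7 in ESC HEB, 7 in ESC+SB HEB, 6 in Endoderm SMAD2/3, 6 in Endoderm HEB and 7 in Endoderm+SB HEB. Of 19 classical and related cadherins, 2, 7, 8, 8, 11 and 7 were listed in that order. The shares of protein-coding genes listed were 7.32%, 24.1%, 29.9%, 23.1%, 24.8% and 23.0%. The genes named here were chosen after their values were seen. Cdh1, the gene of E-cadherin, had 14 regions in ESC HEB and 9 in Endoderm HEB, with highest enrichments of 16.2 and 43.6. Cdh2, the gene of N-cadherin, had 0 regions in ESC HEB and 10 in Endoderm HEB, the highest at 30.3, and 2 regions with SB in differentiating cells, the highest at 18.0. Cdh13, which encodes a cadherin without a cytoplasmic tail, reached 98.9 in Endoderm HEB against 14.2 in ESC HEB, above the 39.4 of the highest protocadherin region. Fat1 reached 35.3 in Endoderm HEB and 52.0 in Endoderm+SB HEB.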
